A study of Mus musculus with 4 samples.

Results

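The genes Prdm14, Tfcp2l1, Tbx3 and Zfp42 encode transcription factors of the naive pluripotency network, and NANOG occupancy was examined in every NANOG peak window centred within 100 kb of their gene bodies. The rule that selects the windows uses position only. There were 29 of them among the 21066 windows of the series: 7 at Prdm14, 7 at Tfcp2l1, 12 at Tbx3 and 3 at Zfp42. A window was called bound when its RPKM (read density, corrected for window length and library depth) reached 0.9 in either condition, and 28 of the 29 members passed, among 16608 bound windows in all. The one that did not lies 55.5 kb downstream of the Tbx3 start and held 1 read in each library, which is the floor of the deposited values, so no fold is given for it.

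NANOG ChIP-seq was carried out in ZHBT-O4AID embryonic stem cells (ESCs) of strain 129SV, with 2 libraries from uninduced cells and 2 prepared 1.5 h after addition of IAA (indole-3-acetic acid, an auxin) at 500 μM. All 4 libraries share a genotype of Oct4-/- with a TetOFF Oct4 transgene kept off by doxycycline, CAG Oct4AID and CAG Tir1. The OCT4 of these cells is thus a fusion to the auxin-inducible degron, expressed constitutively from a transgene, and IAA recruits it to TIR1 for degradation. Cells were grown in N2B27 with PD03, Chiron and mLIF, and the labels give the antibody as Nanog (Bethyl), whereas the antibody list of the study names a rat monoclonal from eBioscience and no Bethyl reagent. The comparison asks how NANOG occupancy at these loci stands shortly after OCT4 is removed. No NANOG library from IAA-treated cells without the degron was analysed here, so removal of OCT4 and any other effect of IAA cannot be told apart. The libraries measure occupancy only, and neither the OCT4 protein nor the RNA of the 4 genes was measured in them.

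Naive pluripotency is the ground state of the preimplantation epiblast, and ESCs hold it through a network of transcription factors that bind each other's enhancers. NANOG is a homeodomain factor of that network and shares many of its sites with OCT4 and SOX2, which bind composite octamer and SOX elements. PRDM14 is a PR domain zinc finger protein that restrains FGF signalling and the DNA methylation machinery. TFCP2L1 is a CP2-family factor that acts below LIF and STAT3. TBX3 is a T-box factor that promotes self-renewal, and ZFP42, also known as REX1, is a zinc finger protein widely used as a marker of the naive state.

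Values of the libraries are given below in a fixed order: uninduced replicates 1 and 2, then IAA replicates 1 and 2. Depth was 8236968, 11674801, 19634763 and 5406307 reads, so 1 read in a window was worth 0.346, 0.244, 0.145 and 0.527 RPKM. A bound member held a median of 9, 15.5, 32.5 and 9.5 reads, and most single windows therefore carry a large counting error. Bound windows took 1.60%, 2.28%, 3.05% and 3.24% of a library's reads, and this share moves with every increase given below. The changes on a scale that takes it out are given after the sums. Since no spiked-in chromatin entered the RPKM, more occupancy per cell, more bound cells and a more efficient immunoprecipitation cannot be told apart. The replicates were separate immunoprecipitations, and p-values measure the spread between them.

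Sequences are given first for the windows on which the account turns: the strongest window of each gene, the windows whose change passed the test, and the single window in which both IAA libraries lay below both uninduced libraries. Each is the central 201 bases of the window on the plus strand of GRCm38 (RefSeq), in lower case, with matches to 5 motifs of network factors in capitals. The motifs, searched on both strands, were the octamer of OCT4 (ATGCAAAT), a SOX core (ACAATG), a NANOG core (TAATGG), an ESRRB element (AAGGTCA) and a KLF element (GGGNGTGG), and none of these overlapped another within the printed stretches. One called window, at the Tbx3 start, lies over an untranslated exon and is not printed.

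Strongest window of each gene, named by its distance from the gene start:
Prdm14, 42.1 kb downstream, chr1:13085008-13085208: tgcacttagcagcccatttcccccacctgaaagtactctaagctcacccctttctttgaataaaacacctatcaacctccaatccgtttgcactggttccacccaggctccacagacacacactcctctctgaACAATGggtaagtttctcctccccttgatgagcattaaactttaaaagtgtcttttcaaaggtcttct
Tfcp2l1, 2.4 kb upstream, chr1:118625495-118625695: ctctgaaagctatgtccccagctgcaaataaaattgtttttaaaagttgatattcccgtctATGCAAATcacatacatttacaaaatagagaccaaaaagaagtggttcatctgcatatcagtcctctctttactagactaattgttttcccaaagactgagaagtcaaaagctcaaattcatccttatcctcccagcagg
Tbx3, 24.4 kb downstream, chr5:119694977-119695177: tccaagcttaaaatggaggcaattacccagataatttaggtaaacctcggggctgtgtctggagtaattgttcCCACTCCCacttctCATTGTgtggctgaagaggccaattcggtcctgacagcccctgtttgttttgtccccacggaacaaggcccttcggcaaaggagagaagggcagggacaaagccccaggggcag
Zfp42, 13.8 kb upstream, chr8:43320698-43320898: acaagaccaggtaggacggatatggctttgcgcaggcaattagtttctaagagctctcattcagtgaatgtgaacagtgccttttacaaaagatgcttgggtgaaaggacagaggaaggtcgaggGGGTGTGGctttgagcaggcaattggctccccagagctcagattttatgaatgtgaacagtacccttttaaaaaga

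Windows that passed the test, all higher after IAA:
Prdm14, 111.2 kb downstream, chr1:13015891-13016091: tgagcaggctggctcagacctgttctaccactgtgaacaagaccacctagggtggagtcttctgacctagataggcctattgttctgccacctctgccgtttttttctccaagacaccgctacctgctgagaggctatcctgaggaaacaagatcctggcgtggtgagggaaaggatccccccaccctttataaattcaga
Tfcp2l1, 59.9 kb downstream, chr1:118687754-118687954: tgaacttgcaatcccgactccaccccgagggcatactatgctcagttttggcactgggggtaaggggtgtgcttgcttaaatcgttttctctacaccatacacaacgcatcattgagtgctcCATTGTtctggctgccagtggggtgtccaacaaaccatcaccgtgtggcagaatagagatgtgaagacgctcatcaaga
Tbx3, 4.7 kb upstream, chr5:119665820-119666020: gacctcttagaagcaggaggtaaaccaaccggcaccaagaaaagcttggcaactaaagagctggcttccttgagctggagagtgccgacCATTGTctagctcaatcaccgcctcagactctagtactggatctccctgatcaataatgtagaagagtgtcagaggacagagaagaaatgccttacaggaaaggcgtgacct

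The window with both IAA libraries below both uninduced libraries:
Prdm14, 67.0 kb downstream, chr1:13060084-13060284: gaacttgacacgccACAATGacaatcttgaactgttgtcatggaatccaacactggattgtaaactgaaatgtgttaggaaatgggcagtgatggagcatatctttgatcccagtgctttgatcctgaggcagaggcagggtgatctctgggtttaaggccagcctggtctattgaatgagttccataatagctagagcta

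Among these 8, the octamer was found only in the Tfcp2l1 window 2.4 kb upstream, the SOX core was found in 5, and the KLF element in 2. The promoter of Zfp42 carried both an octamer and a KLF element. Its 250 bases upstream of the RefSeq start, on the minus strand, lie inside the bound Zfp42 window nearest to that gene, 0.1 kb upstream of the GENCODE start.
Zfp42 promoter, chr8:43307010-43307259: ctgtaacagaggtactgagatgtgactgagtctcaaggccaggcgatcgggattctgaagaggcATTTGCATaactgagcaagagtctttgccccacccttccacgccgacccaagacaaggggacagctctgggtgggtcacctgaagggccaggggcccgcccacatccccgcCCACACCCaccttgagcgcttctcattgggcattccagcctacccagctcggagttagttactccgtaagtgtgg
An octamer was held by 1.60% and a KLF element by 15.9% of the 32851 promoters of this kind in the RefSeq table. These are matches of letters and not measured sites.

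Over the 28 bound members, 4 were higher after IAA by limma (adjusted p under 0.05) and 0 were lower. The 4 make up 14.3% of the members, against 15.0% of all bound windows called higher, so the loci were called about as often as the rest of the genome. Lower calls made up 0.337% of all bound windows. At an unadjusted p under 0.05, 9 members were higher and 1 was lower, against 33.1% and 0.861% of all bound windows. By voom on the recovered reads 3 members were higher and 0 lower, against 15.0% and 0.331%. When either IAA library was left out limma called 0 of the 16608 bound windows, so for single windows only the fits without an uninduced library are set beside a call. The lower IAA value exceeded the higher uninduced value at 16 members (57.1%, against 60.5% of all bound windows), both IAA values were below both uninduced values at 1 (3.57%, against 4.23%), and the conditions overlapped at the remaining 11. The median log2 change in RPKM, IAA minus uninduced on the log2(RPKM + 0.1) scale, was 0.65 in the members and 0.76 in all bound windows. Without uninduced replicate 1 the members' median was 0.302, and without uninduced replicate 2 it was 1.041. It differed between genes, at 0.98 for Tbx3, 0.62 for Prdm14, 0.55 for Tfcp2l1 and 0.25 for Zfp42. Of the members, 7 (25.0%) had a negative change, against 14.2% of all bound windows. With an OCT4 site within 1 kb the share was 38.5%, against 28.8% of all such bound windows, and without one it was 13.3%, against 9.73%.

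**Figure D1:**
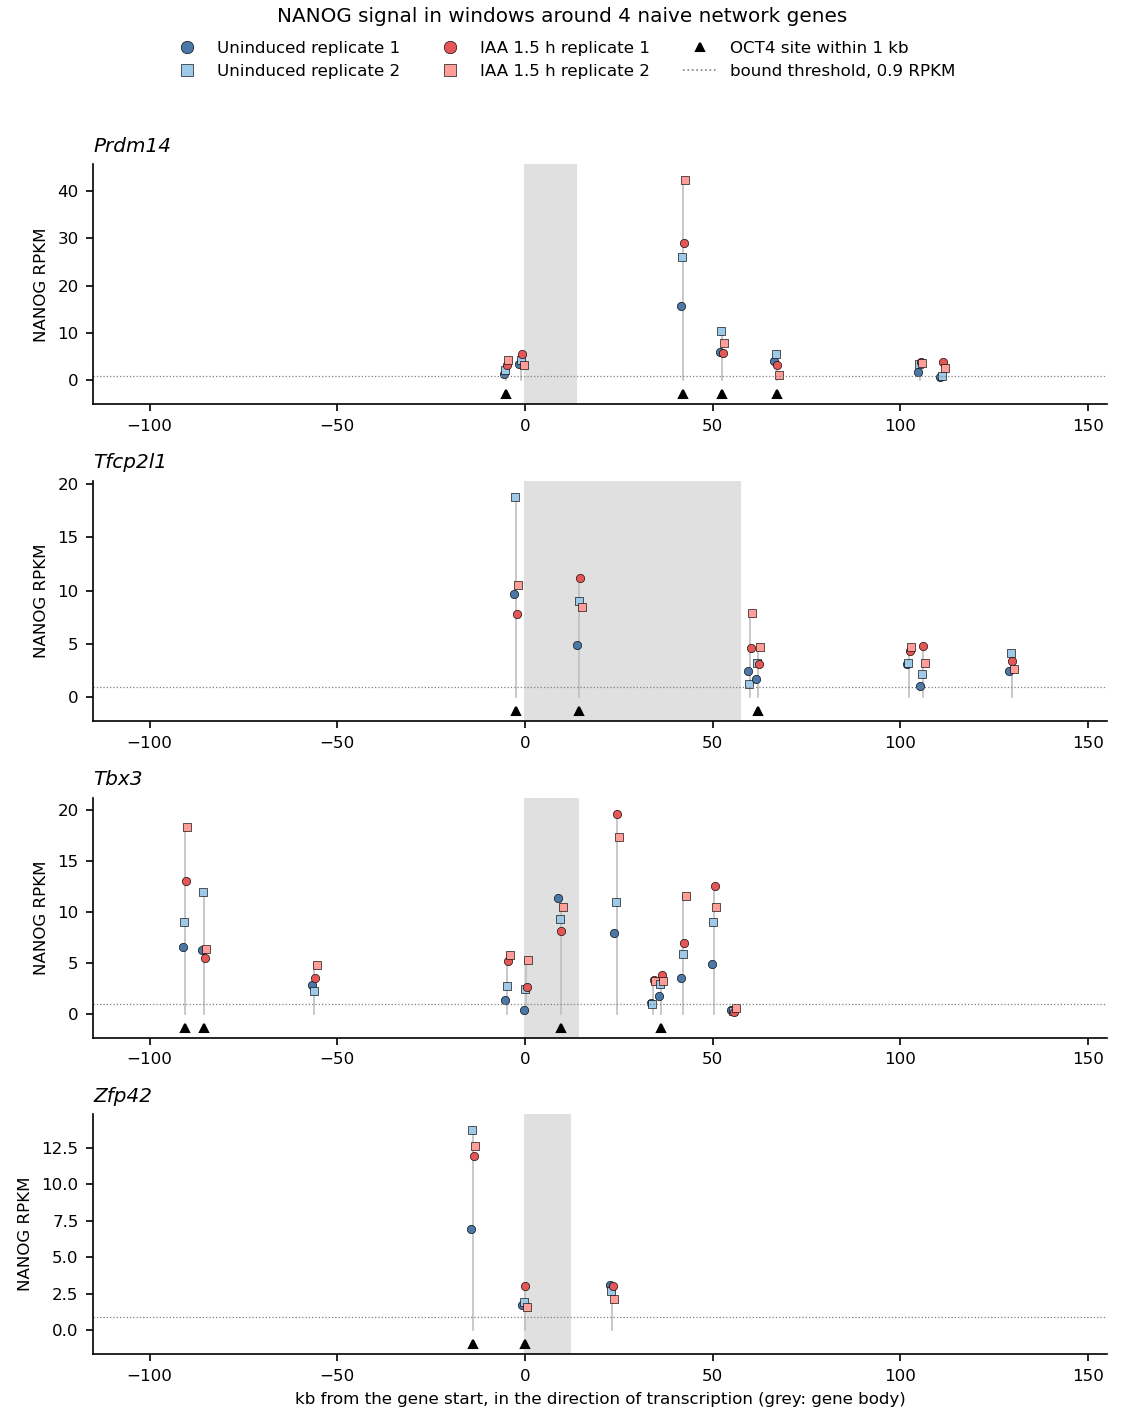
NANOG RPKM in each library (points) against the distance of the window from the gene start in kb, in the direction of transcription, for the 29 windows at 4 genes. Grey bands are gene bodies, triangles mark windows with an OCT4 site within 1 kb and the dotted line is the 0.9 RPKM threshold; the highest points, up to 42.2 RPKM, belong to the Prdm14 window 42.1 kb downstream.

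At Prdm14 (chr1:13113457-13127163, minus strand), NANOG was concentrated in one distal element. The window 42.1 kb downstream of the gene start (chr1:13084933-13085283, intergenic) carries the authors' active enhancer flag and an OCT4 site within 1 kb. It held 45, 107, 199 and 80 reads, or 15.6, 26.1, 28.9 and 42.2 RPKM, and ranked 91, 57, 68 and 46 among all 16608 bound windows. Both IAA libraries were above both uninduced ones. The mean was 20.8 ± 7.46 RPKM before and 35.5 ± 9.39 RPKM after IAA (SD, n = 2 each), and the log2 change of 0.79 ± 0.47 (SE) did not pass the test (limma, adjusted p = 0.219). The change was 0.42 without uninduced replicate 1 and 1.16 without uninduced replicate 2. This single window took 47.4%, 49.1%, 52.9% and 65.0% of the reads in the 7 bound windows of the locus.

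The 2 co-bound windows beyond that enhancer had negative changes, neither of which passed the test. The window 52.5 kb downstream (chr1:13074532-13074882, in an exon of the lincRNA Gm29283) held 17, 43, 40 and 15 reads, or 5.88, 10.5, 5.80 and 7.90 RPKM. Its conditions overlapped and its log2 change was −0.21 ± 0.43 (SE). At 67.0 kb downstream (chr1:13060009-13060359, intergenic and 233 bp from the start of Gm37162), reads were 12, 23, 22 and 2, or 4.15, 5.61, 3.19 and 1.05 RPKM. Here both IAA libraries were below both uninduced libraries, the only such member. The means were 4.88 ± 1.03 and 2.12 ± 1.51 RPKM (SD, n = 2 each) and the log2 change was −1.34 ± 0.52 (SE, adjusted p = 0.0584 by limma). That value rests on few reads in IAA replicate 2, since without this library the change was −0.58 and without IAA replicate 1 it was −2.09. The window passed the limma test in 1 of 13 alternatives, when only windows of at least 2 RPKM were fitted (adjusted p = 0.0486). By voom the change was −0.96 and did not pass (adjusted p = 0.127).

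The farthest window of the locus rose. This window, 111.2 kb downstream (chr1:13015816-13016166, intergenic, no flag), held 2, 4, 26 and 5 reads, or 0.692, 0.976, 3.77 and 2.63 RPKM. Its mean went from 0.834 ± 0.201 to 3.20 ± 0.804 RPKM (SD, n = 2 each), and it rose by 1.82 ± 0.66 (SE) on the log2 scale (limma, adjusted p = 0.0439). The call was lost without uninduced replicate 1 (1.60, adjusted p = 0.0999), and also with a pseudocount of 0.01 (adjusted p = 0.0504), with no threshold (0.0503) and with a threshold of 2 RPKM (0.0725). The remaining 3 windows did not pass. Reads were 5, 14, 27 and 7 at 105.2 kb downstream (no flag, change 0.62), 10, 18, 39 and 6 at 1.0 kb upstream (no flag, change 0.12), and 4, 9, 23 and 8 at 5.1 kb upstream (OCT4 site, change 1.06 ± 0.55, adjusted p = 0.156).

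At Tfcp2l1 (chr1:118627945-118685168, plus strand), the strongest window stood lower in rank after IAA. It lies 2.4 kb upstream of the start (chr1:118625420-118625770, intergenic, OCT4 site within 1 kb) and holds the octamer printed above. It held 28, 77, 54 and 20 reads, or 9.68, 18.8, 7.84 and 10.5 RPKM, and its rank among bound windows went from 338 and 177 to 2469 and 1626. The conditions overlapped in RPKM, with means of 14.2 ± 6.44 and 9.19 ± 1.91 (SD, n = 2 each) and a log2 change of −0.57 ± 0.42 (SE) that did not pass (limma, adjusted p = 0.33). The change was −1.04 without uninduced replicate 1 and −0.09 without uninduced replicate 2. The active enhancer window in the Tfcp2l1 intron, 14.5 kb downstream (chr1:118642309-118642659, OCT4 site), held 14, 37, 77 and 16 reads and had a change of 0.55 ± 0.42 (SE).

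The window 59.9 kb downstream (chr1:118687679-118688029), intergenic just beyond the 3′ end of the gene and without a flag, rose. Its reads were 7, 5, 32 and 15, or 2.42, 1.22, 4.64 and 7.90 RPKM, with both IAA libraries above both uninduced ones. Its mean went from 1.82 ± 0.849 to 6.27 ± 2.31 RPKM (SD, n = 2 each), or by 1.76 ± 0.51 (SE) on the log2 scale (adjusted p = 0.0125, limma). The call held when either uninduced library was left out. Its neighbour at 62.0 kb, an active enhancer window with an OCT4 site, held 5, 13, 21 and 9 reads and changed by 0.67 ± 0.52 (SE) with the conditions overlapping.

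The 3 distal Tfcp2l1 windows carry no flag and did not pass. At 102.3 kb downstream reads were 9, 13, 30 and 9 (change 0.52), at 105.9 kb they were 3, 9, 33 and 6 (change 1.30 ± 0.56, adjusted p = 0.0877), and at 129.6 kb they were 7, 17, 23 and 5 (change −0.09). Both IAA libraries were above both uninduced ones at the first of these and at the second.

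Tbx3 (chr5:119670669-119684724, plus strand) had the most windows, and at 9 of the 11 bound ones (81.8%, against 60.5% of all bound windows) both IAA values exceeded both uninduced values. Its strongest window lies 24.4 kb downstream of the start (chr5:119694902-119695252, intergenic) and carries no flag for OCT4 or chromatin class. It held 23, 45, 136 and 33 reads, or 7.96, 11.0, 19.7 and 17.4 RPKM. The mean was 9.47 ± 2.14 RPKM in uninduced cells and 18.6 ± 1.66 after IAA (SD, n = 2 each), and the log2 change of 0.98 ± 0.43 (SE) did not pass (limma, adjusted p = 0.092). The log2 change was 0.75 without uninduced replicate 1 and 1.21 without uninduced replicate 2.

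Both windows nearest the Tbx3 start passed the test. The one 4.7 kb upstream (chr5:119665745-119666095, in an intron of the antisense gene Tbx3os1) carries the repressed flag and held 4, 11, 36 and 11 reads, or 1.38, 2.68, 5.22 and 5.80 RPKM. It rose from 2.03 ± 0.92 to 5.51 ± 0.405 RPKM (SD, n = 2 each), or by 1.46 ± 0.50 (SE) on the log2 scale (adjusted p = 0.0338, limma). The one 0.3 kb downstream of the start (chr5:119670810-119671160), over an untranslated exon of Tbx3 and an intron of Tbx3os1, carries the active promoter flag and held 1, 10, 18 and 10 reads, or 0.346, 2.44, 2.61 and 5.27 RPKM. It rose from 1.39 ± 1.48 to 3.94 ± 1.88 RPKM (SD, n = 2 each), or by 1.84 ± 0.62 (SE) on the log2 scale (adjusted p = 0.0303, limma).

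Uninduced replicate 1 stood at the floor of 1 read in the promoter window, and the second uninduced library was close to the first IAA library there. Without uninduced replicate 1 the promoter change was 0.59 (adjusted p = 0.48), so that library set most of it. The repressed window changed by 1.01 without the same library (adjusted p = 0.104). By voom the promoter window did not pass (1.42, adjusted p = 0.0797).

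Co-bound windows of Tbx3 behaved unequally. An active enhancer window 90.5 kb upstream (chr5:119579960-119580310, OCT4 site) held 19, 37, 90 and 35 reads, or 6.57, 9.03, 13.1 and 18.4 RPKM, with a change of 1.00 ± 0.42 (SE, adjusted p = 0.0818). The window 85.5 kb upstream (chr5:119584981-119585331, OCT4 site, not in the enhancer class) held 18, 49, 38 and 12 reads, or 6.23, 12, 5.51 and 6.32 RPKM. Both lie in an intron of Tbx3os1. The second had means of 9.09 ± 4.05 and 5.92 ± 0.573 RPKM (SD, n = 2 each). It changed by −0.54 ± 0.43 (SE) on the log2 scale and did not pass (adjusted p = 0.354, limma). That change was −1.01 without uninduced replicate 1 and −0.08 without uninduced replicate 2. In the Tbx3 intron, 9.5 kb downstream, the active enhancer window with an OCT4 site held 33, 38, 56 and 20 reads, or 11.4, 9.27, 8.13 and 10.5 RPKM, and its change of −0.15 ± 0.42 (SE) left the conditions overlapping.

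The other bound Tbx3 windows did not pass, and in each of them both IAA libraries were above both uninduced ones. Those without an OCT4 site had reads of 8, 9, 24 and 9 at 56.1 kb upstream (change 0.70), 3, 4, 23 and 6 at 34.1 kb downstream (1.60 ± 0.63, adjusted p = 0.0628), 10, 24, 48 and 22 at 42.2 kb downstream (0.98) and 14, 37, 87 and 20 at 50.3 kb downstream (0.79). The one with an OCT4 site, 36.2 kb downstream, had reads of 5, 12, 26 and 6 and a change of 0.59.

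Zfp42 (chr8:43295063-43306980, minus strand) had the fewest windows, and in all 3 the conditions overlapped. The strongest, 13.8 kb upstream (chr8:43320623-43320973, intergenic), carries an OCT4 site and the repressed flag. It held 20, 56, 82 and 24 reads, or 6.92, 13.7, 11.9 and 12.6 RPKM, so that the uninduced replicates spanned both IAA values. Its means of 10.3 ± 4.77 and 12.3 ± 0.53 RPKM (SD, n = 2 each) differed by 0.33 ± 0.42 (SE) on the log2 scale (adjusted p = 0.579, limma). Leaving out uninduced replicate 1 turned it to −0.15, and leaving out uninduced replicate 2 made it 0.82 (adjusted p = 0.0343).

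The promoter window of Zfp42, 0.1 kb upstream (chr8:43306931-43307281, OCT4 site, active promoter flag), held 5, 8, 21 and 3 reads, or 1.73, 1.95, 3.05 and 1.58 RPKM, with a change of 0.25 ± 0.61 (SE). The lowest change was at 23.2 kb downstream (chr8:43283650-43284000, intergenic, no flag), where reads were 9, 11, 21 and 4, or 3.11, 2.68, 3.05 and 2.11 RPKM. Its means were 2.90 ± 0.303 and 2.58 ± 0.664 RPKM (SD, n = 2 each), and the log2 change was −0.18 ± 0.54 (SE, limma adjusted p = 0.82), or 0.07 without IAA replicate 2.

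**Figure D2:**
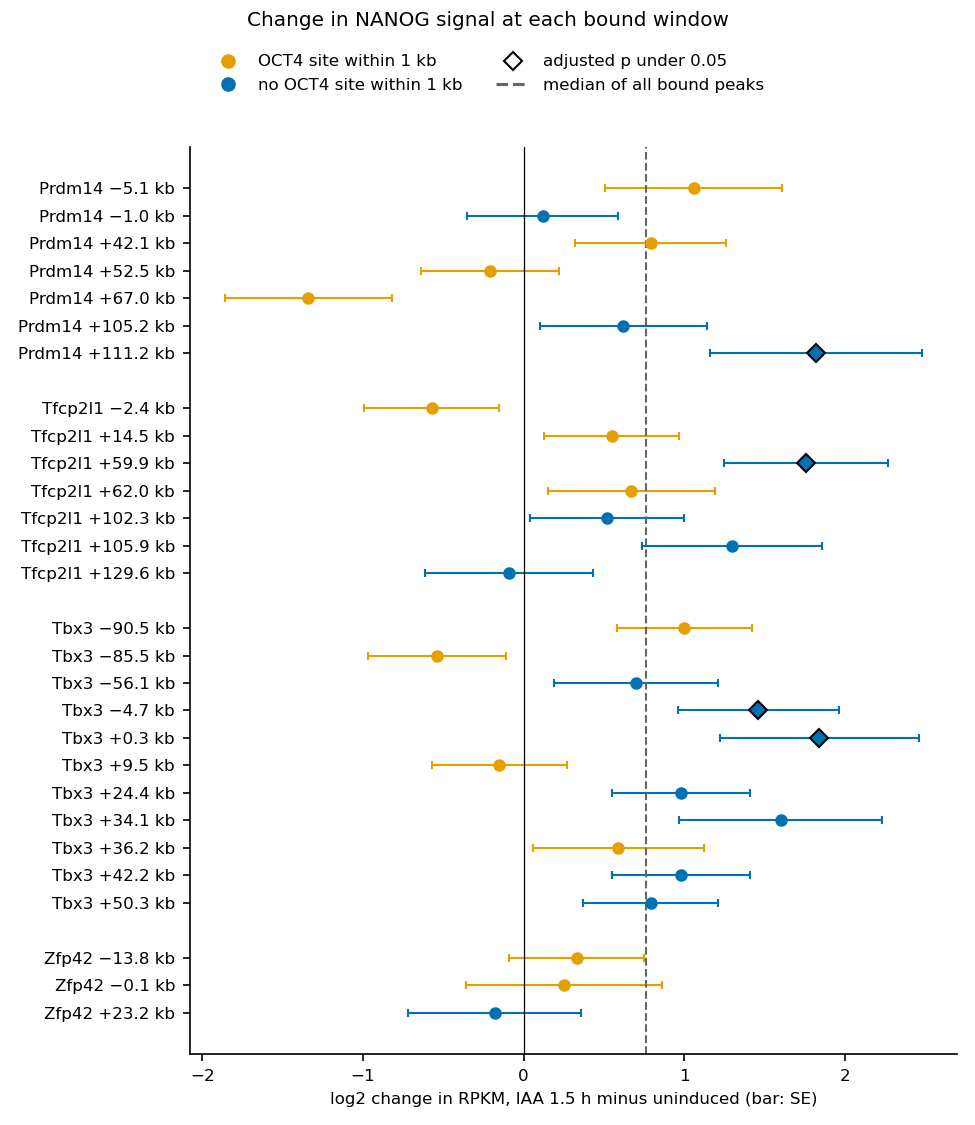
Log2 change in RPKM (IAA 1.5 h minus uninduced, with its SE) of the 28 bound windows, by gene and distance from the gene start. Orange points have an OCT4 site within 1 kb and blue points do not, diamonds passed the test and the dashed line is the median of all bound windows, 0.76. The 4 diamonds are all blue, and 5 of the 7 points below 0 are orange. Over all bound windows, 28.8% of those with an OCT4 site and 9.73% of the others lay below 0.

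OCT4 sites lay within 1 kb of 13 of the 28 bound members (46.4%, against 23.7% of all bound windows). The active enhancer flag was carried by 5 members (17.9%, against 10.6%), all of them co-bound, the active promoter flag by 2 and the repressed flag by 2. The OCT4 sites were called by the authors from published data, so a flag does not say that OCT4 was bound in these cells.

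All 4 windows called higher lacked an OCT4 site. They were 4 of the 15 members without one (26.7%, against 17.6% of all bound windows without one), while 0 of the 13 co-bound members were called by limma and 0 by voom (limma called 6.69% of all co-bound windows higher). At an unadjusted p under 0.05, 1 co-bound member was higher and 1 was lower, and of the others 8 were higher and 0 lower. Shares at that p were counted over all bound windows only (33.1% and 0.861%) and not by class. The split moved with the libraries: without uninduced replicate 2 limma called 5 co-bound and 9 other members higher, with 40.7% of all bound windows called, and without uninduced replicate 1 it called 0 and 1. No member was called lower in either class, against 1.15% of all co-bound windows and 0.0868% of the others. The lower IAA value exceeded the higher uninduced value at 12 of the 15 (80.0%, against 66.4%) and at 4 of the 13 (30.8%, against 41.8%). Both IAA values were below both uninduced values at 0 of the 15 (against 2.22%) and at 1 of the 13 (7.69%, against 10.7%). The median log2 change was 0.98 without an OCT4 site and 0.33 with one, a difference of −0.65. Over all bound windows the same medians were 0.86 and 0.39, a difference of −0.47. Between single libraries of different conditions the members' difference ran from −0.76 to −0.33, and between replicates it was 0.28 in uninduced cells and 0.41 after IAA. Windows of a library are not replicates of the treatment, so this difference is a description, with no test.

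The gap was not the same at the 4 genes. It was −0.76 at Tbx3, −0.37 at Tfcp2l1 and −0.33 at Prdm14, and 0.47 at Zfp42, where there was a single window without an OCT4 site. Without the Tbx3 locus the difference was −0.24, and without uninduced replicate 2 it was −0.42. Among the co-bound members, the 5 active enhancer windows had a median change of 0.67 (range −0.15 to 1.00) and the other 8 one of 0.02 (−1.34 to 1.06). All co-bound windows were not split by this flag, so these medians have no background value. The co-bound members also had more signal, with a median of 7.52 RPKM against 3.30 RPKM in the others, and the part of signal level in the difference was not tested.

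The share of a locus's reads that falls at its co-bound windows is a ratio within a library, in which the library's total cancels. It was chosen as a measure after the values were seen. Over all 4 genes the share was 66.2% (95% Wilson interval 61.0% to 71.0%) and 68.8% (65.4% to 72%) in uninduced cells, and 55.4% (52.7% to 58.0%) and 59.8% (55.0% to 64.4%) after IAA. The intervals cover counting error only. Both IAA libraries were below both uninduced ones, and the means of 67.5% ± 1.84 and 57.6% ± 3.12 (SD, n = 2 each) differed by −9.88 percentage points (exact permutation test over libraries, two-sided p = 0.333, the smallest that 2 against 2 allow). Over all bound windows the same difference was −6.62 points. It was −13.9 points at Tbx3, −13.1 at Tfcp2l1, −2.35 at Prdm14 and 5.65 at Zfp42, and −4.50 without the Tbx3 locus. At Tfcp2l1 the co-bound window 2.4 kb upstream alone went from 38.4% and 45.0% of the locus's reads to 20.0% and 25.0%. The difference at that gene thus rests largely on this window.

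**Figure D3:**
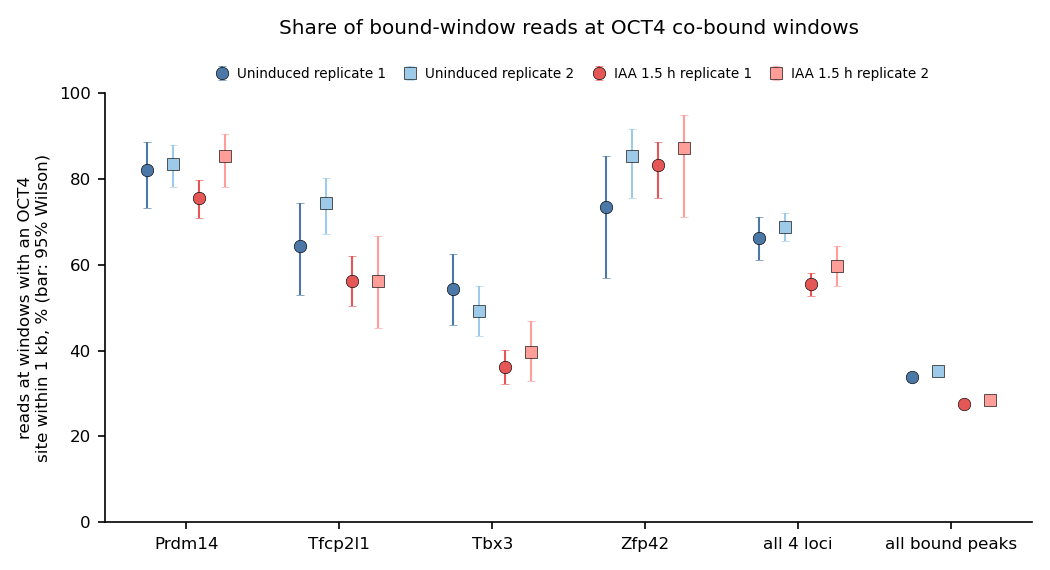
Percent of the reads in bound windows that lie at windows with an OCT4 site within 1 kb, in each library, with 95% Wilson intervals, for each gene, for the 4 genes together and for all bound windows. At Tbx3 and Tfcp2l1 both IAA libraries sit below both uninduced ones, while at Prdm14 and Zfp42 the conditions overlap.

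Pairs of neighbouring windows, also picked after their values were seen, gave the same kind of comparison with no scaling between libraries. At Tbx3 the enhancer window 90.5 kb upstream held 1.06 and 0.755 times the reads of the window 5021 bp away in uninduced cells, and 2.37 and 2.92 times after IAA. At Tfcp2l1 the window 2.4 kb upstream held 2.0 and 2.08 times the reads of the intronic enhancer, then 0.701 and 1.25 times. In each pair the conditions did not overlap.

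At Prdm14 the window 52.5 kb downstream held 0.378 and 0.402 of the reads of the enhancer at 42.1 kb in uninduced cells and 0.201 and 0.188 after IAA. For the window at 67.0 kb these ratios were 0.267 and 0.215, then 0.111 and 0.025. The strongest Tbx3 window, without an OCT4 site, held 0.697 and 1.18 times the reads of the co-bound intronic enhancer, then 2.43 and 1.65 times. Because the 5 pairs were chosen for their contrast they are a description, with no test.

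**Figure D4:**
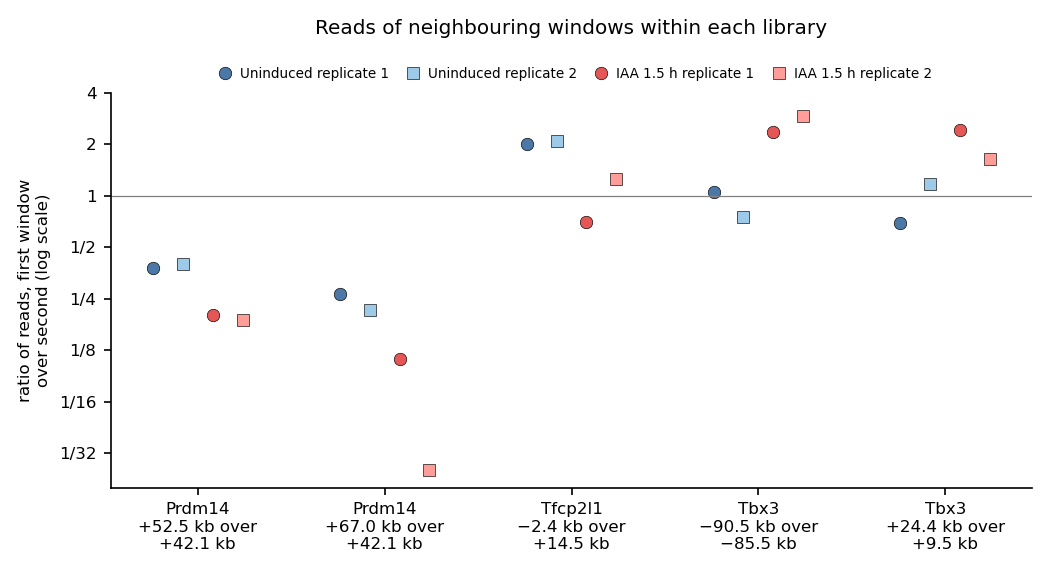
Ratio of reads between pairs of windows of the same gene in each library, on a log scale, for 5 pairs picked after their values were seen. The IAA points lie below the uninduced points in the first 3 pairs and above them in the last 2.

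Summed over its bound windows, Prdm14 had 32.9, 53.2, 54.6 and 64.8 RPKM, and Tbx3 had 47.7, 67.4, 84.4 and 97.0 RPKM. In both the IAA libraries were above the uninduced ones, by 0.51 and 0.67 on the log2 scale of the sums. Tfcp2l1 had 25.2, 41.7, 39.2 and 42.2 RPKM and Zfp42 had 11.8, 18.3, 18.0 and 16.3 RPKM, which overlapped between conditions and differed by 0.32 and 0.22. The exact permutation test over the 4 libraries, two-sided and adjusted over the 4 genes, gave p = 0.667 for Prdm14 and Tbx3, 0.889 for Tfcp2l1 and 1.0 for Zfp42, in a design that cannot go below 0.333 before adjustment. Without uninduced replicate 1 the differences were 0.16, 0.43, −0.04 and −0.09 for Prdm14, Tbx3, Tfcp2l1 and Zfp42, and without uninduced replicate 2 they were 0.86, 0.92, 0.69 and 0.54. The sum over all 4 genes differed by 0.51, against 0.72 for the sum over all bound windows.

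When each library was scaled to its reads in bound windows in place of its total, the median change of all bound windows went from 0.76 to 0.06, a shift that all windows share. Relative to that median, 12 members lay above and 16 below. On this scale limma called 0 members higher (against 0.259% of all bound windows) and 2 lower (against 1.19%). The 2 were the Tfcp2l1 window 2.4 kb upstream (−1.28, adjusted p = 0.0208) and the Tbx3 window 85.5 kb upstream (−1.25, adjusted p = 0.0363), both co-bound. At an unadjusted p under 0.05, 1 member was higher and 5 were lower, and shares of all bound windows at that p were not counted on this scale.

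Across the 28 members, the octamer was found in 2 (7.14%, against 2.96% of all bound windows), the Tfcp2l1 window 2.4 kb upstream and the Zfp42 promoter window, both co-bound. Over all bound windows the octamer was held by 7.84% with an OCT4 site within 1 kb and 1.44% without one. The SOX core was found in 11 (39.3%, against 37.0%), the NANOG core in 5 (17.9%, against 20.9%), the ESRRB element in 5 (17.9%, against 18.7%) and the KLF element in 6 (21.4%, against 15.9%). The 5 windows with an ESRRB element were all among the 15 without an OCT4 site, while over all bound windows it was held by 19.0% with and 18.6% without one. GC content had a median of 47.7%, against 46.2% in all bound windows. Repeats covered more than 50% of the window in 4 members (14.3%, against 17.0% of all bound windows). Among them were the called window 111.2 kb downstream of Prdm14 (59.0%) and the window at 67.0 kb (59.8%).

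The other genes of the naive network were taken from a list of 15, each by its strongest bound window within 100 kb. A bound window was found for 14 of them, and for Nr0b1 there was none. Of the 14, 2 passed as higher and 0 as lower by limma, against 15.0% and 0.337% of all bound windows. At an unadjusted p under 0.05, 4 were higher, against 33.1% of all bound windows. By voom 2 were higher and 0 lower, against 15.0% and 0.331%. The 2 that passed by limma were Stat3, the transducer of LIF signalling (1.62 ± 0.44 SE, adjusted p = 0.00798), and Klf5, a Krüppel-like factor (1.14 ± 0.42 SE, adjusted p = 0.0478). The median change of the 14 was 0.74 and their range −0.01 to 1.62, where Nanog and Dppa3 share 1 window. The strongest windows of Prdm14 (0.79) and Tbx3 (0.98) lay within that range, as did that of Zfp42 (0.33), and that of Tfcp2l1 (−0.57) lay below it.

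The windows nearest to the 100 kb limit were few. The Prdm14 window 97.5 kb from the gene body is the called one above, and the next outside lies at 115.4 kb with 5.77 and 8.23 RPKM in the conditions. At Tbx3 the outermost upstream window lies 90.5 kb from the gene and the next at 272.8 kb, with 2.08 and 2.87 RPKM. At Tfcp2l1 and Zfp42 the nearest windows outside lay between 146.5 and 796.4 kb away. Protein-coding genes other than the 4 also overlap these spans, Ncoa2 at Prdm14 and Clasp1 at Tfcp2l1, and which gene a window serves was not measured.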

How the data were processed

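NANOG ChIP-seq libraries were grouped by the labels into uninduced (2) and IAA 1.5 h (2). Reads were aligned by the authors with Bowtie2 2.3.4.3 to GRCm38/mm10, and NANOG peaks were called with MACS2 on both conditions pooled, so every library is measured over the same windows of 351 bp. The deposited values are RPKM per window and library, with a table of RPKM per condition (the mean of the 2 libraries, to within 5.0e-06) and 4 flags. The authors took OCT4 sites and chromatin classes from published data. RPKM values were whole multiples of the smallest value in each library (100.0% within 0.001), which gave reads per window. No value was 0.

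Windows were bound at 0.9 RPKM or more in either condition. Changes in log2(RPKM + 0.1), which understates those of low windows, were tested two-sided by limma 3.58.1 in R 4.3.3 (lmFit, then eBayes with a trend), with Benjamini-Hochberg adjustment over all 16608 bound windows and a threshold of 0.05. Sums per gene were compared by exact permutation over libraries. Scripts were tested on simulated data. Gene positions came from GENCODE mouse release 21 and sequence from RefSeq GRCm38. Distances are from the gene start to the window centre, and coordinates are 1-based. The other software was pandas 2.3.3, pysam 0.24.0, scipy 1.17.1, numpy 2.4.6 and matplotlib 3.10.9 under Python 3.11.15. Every member is reported. Full statistics were given, per gene, to the strongest window, those with the largest and the lowest change and any called. The members, lists and tests were chosen with earlier results of these data known. Alternatives were pseudocounts of 0.01 and 0.5, no threshold, a threshold of 2 RPKM, 2 other scalings, no variance trend, voom on the recovered reads, a replicate block, each library left out and a distance of 50 kb. The share at co-bound windows, the pairs of windows and leaving out the Tbx3 locus or the strongest windows were added after the data were seen.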

Additional observations from a re-analysis of the deposited data

How the results depend on the processing

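The 4 members called higher became 3 with a pseudocount of 0.01, with no threshold, with a 2 RPKM threshold, by voom and within 50 kb, 4 with a pseudocount of 0.5, and 2 without the Tbx3 locus. They became 0 without a variance trend, under quantile normalization and when scaled to reads in bound windows. At an unadjusted p under 0.05 these settings had 7, 0 and 1 members higher and 1, 5 and 5 lower. Over all bound windows they called 157 (0.945%), 0 and 43 (0.259%) higher. Lower calls went from 0 to 1 with the 2 RPKM threshold and to 2 when scaled to reads in bound windows. Leaving out 1 library gave 0 to 14 higher calls and 0 to 2 lower calls. The member counts moved with those over all bound windows, which were 0 higher without either IAA library (where no window could show stability), 1749 without uninduced replicate 1 (1 member, and 2 lower) and 6761 without uninduced replicate 2 (14 members). In these fits the lone library is assumed to vary like the other group. The median change of 0.65 became −0.044 when scaled to reads in bound windows, −0.041 under quantile normalization, and 0.302 to 1.041 with 1 library left out. The difference between co-bound and other members, on which the scalings act little by construction, ran from −0.571 to −0.418 with 1 library left out and −0.238 without the Tbx3 locus. The share at co-bound windows differed by −12.1 to −7.67 points with 1 library left out, −11.4 without the strongest window of each gene and −4.50 without the Tbx3 locus. Scaled to reads in bound windows, the sums differed by −0.21 at Prdm14, −0.39 at Tfcp2l1, −0.04 at Tbx3 and −0.49 at Zfp42. With 1 library left out they ranged from 0.16 to 0.86, −0.04 to 0.69, 0.43 to 0.92 and −0.09 to 0.54 in the same order. The change at the Zfp42 window 13.8 kb upstream was −0.38 and −0.39 under the 2 scalings and −0.15 to 0.82 with 1 library left out, and at the Zfp42 window 23.2 kb downstream it was −0.44 to 0.07. The causes were not tested. Over 13 alternatives each, the 4 called windows lost the call in 28 of 52 values, or in 20 of 44 without the fits that leave out an IAA library. The 20 include the losses under quantile normalization, where no bound window was called higher and so no call could be kept. The 7 uncalled windows described in full gained it in 10 values and turned sign in 4.

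Deviations of same-numbered libraries were not correlated across windows (r = 0.00546, over windows that are not independent). With 2 libraries per condition and few reads in most windows, this cannot decide whether the numbers pair the samples. A fit with the number as a replicate block called 6 members higher and 0 lower, with 2655 higher over all bound windows. Of the windows described in full, those 42.1 kb downstream of Prdm14 (adjusted p = 0.0171) and 24.4 kb downstream of Tbx3 (0.0204) gained a call and the one 111.2 kb downstream of Prdm14 (0.0553) lost it. Depth limits the weak windows most, since the 0.9 RPKM threshold corresponds to 2.60, 3.69, 6.21 and 1.71 reads.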
